A study of Mus musculus with 12 samples.

Results

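Chemokines are small secreted proteins that call leukocytes into tissue, and the genes of the chemokines and of their receptors were followed here in the ascending aorta of mice. A gene belonged to the family if its symbol began with Ccl, Cxcl, Xcl, Cx3cl, Ccr, Cxcr, Cx3cr, Xcr, Ackr or Ccrl (with a number after Ccl, Cxcl, Ccr and Cxcr) and an array probe set named that gene alone. This gave 57 of 19938 genes on the array, namely 19 CC ligands, 13 CXC ligands, Cx3cl1 and Xcl1, 18 receptors and 5 atypical receptors. RNA of 12 samples was hybridised to 12 arrays, with 3 arrays in each of 4 groups. All mice were 6 weeks old and carried Tgfbr2 (which encodes a receptor for TGF-beta) in floxed form together with Myh11-CreERT2, a Cre made in smooth muscle cells that acts once tamoxifen is given. Wild-type knockouts (Myh11-CreERT2.Tgfbr2f/f, Fbn1 wild-type) were injected with 1 mg tamoxifen on 5 days from 4 weeks of age, and wild-type controls of the same genotype received corn oil. Mutant knockouts and mutant controls had the same treatments and carried 1 mutant copy of the fibrillin-1 gene as well (Fbn1C1039G/+), an allele used to model Marfan syndrome in mice. Tamoxifen and loss of Tgfbr2 cannot be told apart in any comparison of knockout with control. The Cre acts in smooth muscle only, whereas the RNA came from all cells of the vessel piece. Nothing in the labels tells whether arrays within a group are separate animals, so a p-value here measures spread between samples that may be technical.

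Ligands of the CC class call monocytes, lymphocytes and eosinophils, and those of the CXC class neutrophils, lymphocytes or blood stem cells, depending on the receptor they bind. Receptors sit mostly on leukocytes and signal through inhibitory G proteins, whereas atypical receptors bind chemokines without that signal and many of them remove the ligand. Many ligands can be made by vessel wall cells and by macrophages alike. In the aorta Ccl2 and its receptor Ccr2 are best known for the entry of monocytes, and Cx3cl1 (fractalkine), held on the cell surface, binds Cx3cr1 on monocytes and macrophages.

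Of the smooth muscle markers 12 of 12 passed the filter on dim probe sets, and their summed intensity lay between 125218 and 130370 on every array. The filter was also passed by 14944 of all 19938 genes and by all 15 endothelial and 11 fibroblast markers on the array. Passing it therefore does not test the tissue label. Tgfbr2 averaged 11.87 ± 0.08 log2 intensity in wild-type knockouts and 11.95 ± 0.01 in wild-type controls (SD, n = 3 each), a difference of -0.08 with a two-sided exact permutation p of 0.2. In the mutant genotype it averaged 12.03 ± 0.05 in knockouts and 11.99 ± 0.04 in controls (SD, n = 3 each, exact permutation p = 0.3). The smallest p this permutation test allows is 0.1, and the limma fit over all genes gave adjusted p of 0.324 in the wild-type and 0.594 in the mutant genotype. Tgfbr2 RNA was thus not measurably lower in either knockout group and does not bear out the labels, though the array data alone do not show where its probes lie relative to the floxed part. Groups were taken from the sample titles, which name Tgfbr2 throughout, while the descriptions of knockouts 2 and 3 in each genotype name Tgfbr3 and Tgfbr4 in its place. Among arrays, mutant knockout 1 and mutant control 3 stood apart by Ucp1, a brown fat gene, at 8.21 and 8.58 log2 against 6.75 to 7.30 on the other 10, and calls lost without both are given with each comparison.

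Most of the receptors lay at background and most of the CC ligands above it. With no detection calls in the deposited values, 1027 receptors of smell, which the aorta should hardly express, set the background, and their 95th percentile was 7.63 on the log2 intensity scale. The mean over 12 arrays exceeded it for 27 of the 57 members and did not for 30. By class 12 of 19 CC ligands, 5 of 13 CXC ligands, 5 of 18 receptors and 4 of 5 atypical receptors were above it, as was Cx3cl1 but not Xcl1. For the tests a gene needed a mean of at least 7.31, the 25th percentile of probe sets with 1 symbol, and 34 members of 57 passed against 14944 of all 19938 genes. Probe sets differ in how strongly they bind, and no gene's level is set against another's.

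The receptors that passed were Cx3cr1, Ccr10, Ccr7, Cxcr4, Cxcr3 and Cxcr1. Those below the filter were Ccr1, Ccr1l1, Ccr2, Ccr3, Ccr4, Ccr6, Ccr8, Ccr9, Cxcr2, Cxcr5, Cxcr6 and Xcr1. The ligands below it were Ccl12, Ccl22, Ccl26, Ccl28, Cxcl2, Cxcl3, Cxcl5, Cxcl11, Cxcl13, Cxcl15 and Xcl1, and all 5 atypical receptors (Ackr1 to Ackr4 and Ccrl2) passed. Among members that passed, Ccl4, Ccl8, Cxcl10 and Cxcr1 had fewer than 4 group means at the filter. Ccl8 reached it through the wild-type knockouts alone and Cxcl10 through the knockout groups alone, so that their passing already required a difference. Ccr2, Cxcl13 and Xcr1 reached the filter in at least 1 group and were not tested.

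**Figure D1:**
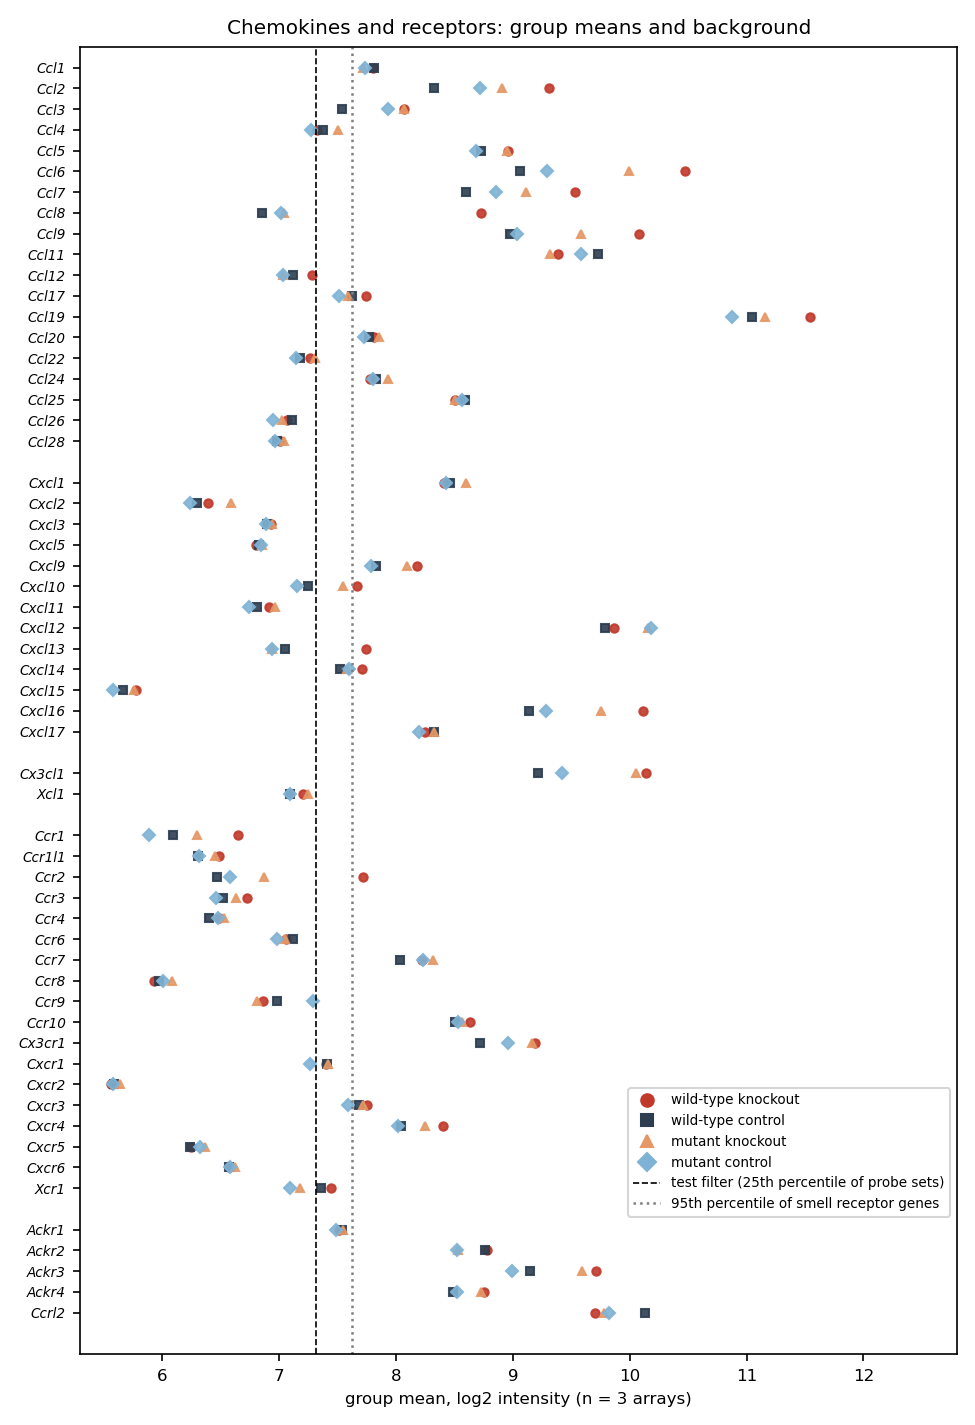
Mean log2 intensity of all 57 chemokine and receptor genes in wild-type knockouts, wild-type controls, mutant knockouts and mutant controls (points, n = 3 arrays each), in rows by class, with the test filter at 7.31 (dashed) and the background of smell receptors at 7.63 (dotted). Points of 1 row may be compared but not points of different rows. Ccl8 and Ccr2 lie left of the filter in 3 groups and right of it in wild-type knockouts.

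Knockouts with wild-type Fbn1 had higher RNA of many ligands than their controls. Of the 34 tested members 14 rose and 1, Ccrl2, fell (limma, adjusted p under 0.05 over all genes tested), which is 44.1% of them against 18.8% of all genes tested. Of all genes tested 9.17% rose and 9.66% fell. The median log2 difference of the 34 members was 0.19, against -0.01 for all genes tested. Groups did not overlap for 18 members, where 35.8% of all genes tested were so. Those that rose comprised 7 of 15 CC ligands (Ccl2, Ccl3, Ccl6, Ccl7, Ccl8, Ccl9, Ccl19), 3 of 7 CXC ligands (Cxcl10, Cxcl14, Cxcl16), Cx3cl1, 1 of 6 receptors (Cx3cr1) and 2 of 5 atypical receptors (Ackr3, Ackr4). Without Ccl8 and Cxcl10, which passed the filter only through groups where they were high, 12 of 32 rose and 1 fell, or 40.6%. In whole tissue, more cells of a type and more RNA per cell cannot be told apart.

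Between knockouts and controls of the mutant genotype 6 members rose (Ackr3, Ccl6, Ccl9, Cx3cl1, Cxcl10, Cxcl16) and 0 fell. At an unadjusted p under 0.05 there were 14 of 34, with the share of all genes at that threshold not computed. The 6 called were 17.6% of the members against 13.4% of all genes tested, of which 7.66% rose and 5.77% fell. Without Ccl8 and Cxcl10 it was 5 of 32, or 15.6%, so that the share lay near that of all genes. The median log2 difference was 0.15, against 0.03 for all genes tested. Of the 34 differences 28 were above 0 here and 24 in the wild-type, with the shares of all genes above 0 not computed. Groups did not overlap for 13 members, against 35.9% of all genes tested. All 6 had also risen in the wild-type genotype, which is 6 of 14 there and 6 of 6 here. This count rested on single arrays. With a single array left out it was 1 for mutant knockout 1, 1 for mutant control 1, 2 for mutant control 2, 3 for mutant knockout 2 and also 3 for mutant knockout 3. With a score of immediate early genes, which was highest in mutant knockout 1 at 1.70, as a covariate it was 3. Without both arrays of high Ucp1 the calls of Cxcl10, Ackr3 and Cxcl16 were lost (adjusted p of 0.186, 0.123 and 0.122).

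Effects in the 2 genotypes were compared by the difference of the knockout effects (mutant minus wild-type). It was past the threshold for Ccl8 and Ccl2, both with the smaller effect in the mutant, which is 5.88% of the members against 1.48% of all genes tested, with 1.08% in that direction and 0.401% in the other. Without Ccl8 and Cxcl10 it was 1 of 32, or 3.12%. At an unadjusted p under 0.05 there were 12 of 34, a threshold at which the share of all genes was not computed. Of the 14 members that rose in wild-type knockouts, the effect was smaller in the mutant for 13, all but Ackr3. Of those 13, 11 did not reach the threshold for the difference itself. The 14 were chosen by their wild-type effect, which alone favours a smaller effect in the mutant. The same share among all genes that rose was not computed, so nothing is concluded from this count.

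**Figure D2:**
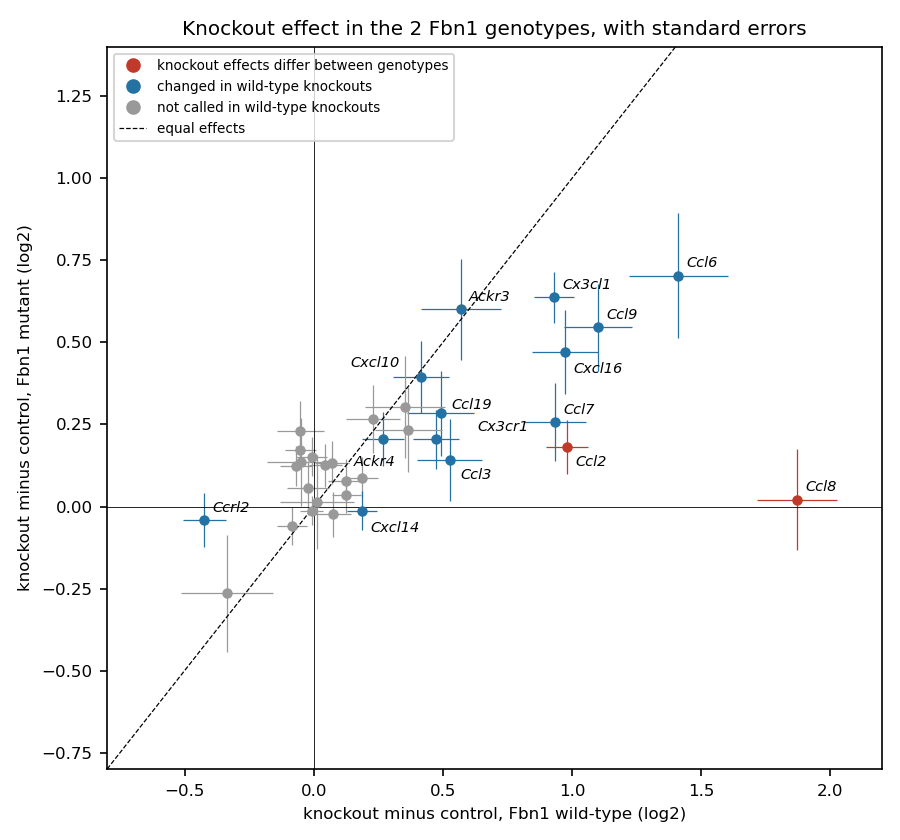
Knockout minus control (log2) in the mutant genotype (vertical) against the wild-type genotype (horizontal) for the 34 tested members, with standard errors from limma and the line of equal effects. Ccl8 sits at 1.87 on the horizontal and 0.02 on the vertical axis, and Ackr3 and Cxcl10 lie close to the line.

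**Figure D3:**
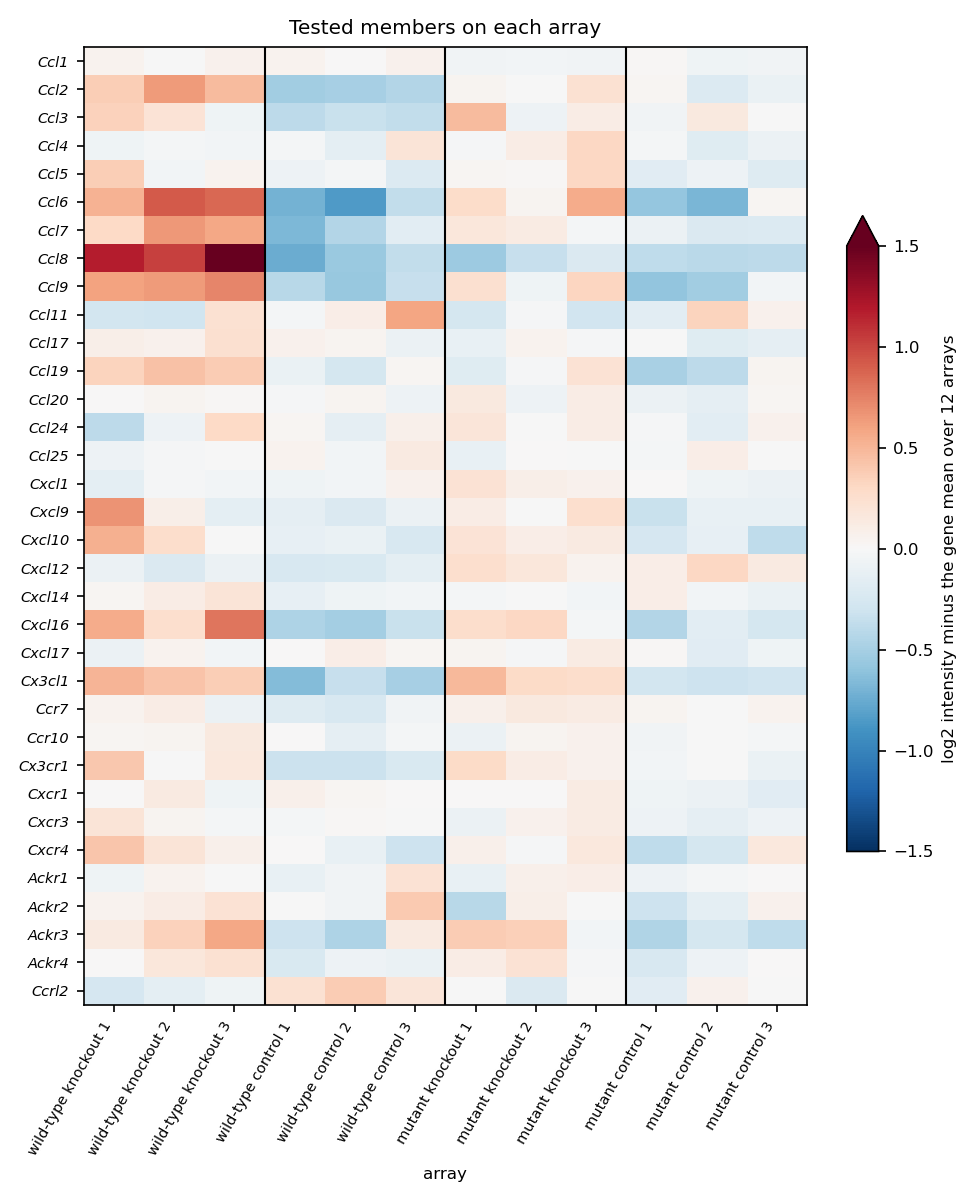
Log2 intensity of the 34 tested members on each of the 12 arrays, minus the mean of the gene over all arrays (colour, from -1.5 to 1.5, with higher values in the colour of 1.5). Groups are separated by black lines. Ccl2, Ccl6, Ccl7, Ccl8, Ccl9, Cxcl16 and Cx3cl1 are among the genes that lie above their own mean on every wild-type knockout array.

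The monocyte-attracting ligands Ccl2 and Ccl7 bind Ccr2, as does Ccl12. Ccl2 stood at 9.18, 9.46 and 9.29 log2 intensity in wild-type knockouts, against 8.29, 8.32 and 8.38 in wild-type controls. In the mutant genotype it stood at 8.86, 8.82 and 9.04 in knockouts, against 8.84, 8.61 and 8.72 in controls. All wild-type knockout arrays were above all wild-type controls, and the mutant groups lay between these and overlapped. Ccl2 rose 1.97-fold in wild-type knockouts (0.98 ± 0.08 log2, SE, adjusted p = 1.16e-05), whereas its difference in the mutant was 0.18 with a 95% interval of 0.00 to 0.36 (adjusted p = 0.151). The 2 effects differed by -0.80 ± 0.12 (adjusted p = 0.00573). Both calls held under each of 25 alternatives.

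Ccl7 stood at 9.32, 9.68 and 9.60 in wild-type knockouts, against 8.35, 8.59 and 8.86 in wild-type controls, without overlap. In the mutant it stood at 9.20, 9.14 and 8.99 in knockouts, against 8.93, 8.81 and 8.82 in controls, again without overlap but closer together. The rise in wild-type knockouts was 1.91-fold (0.93 ± 0.12 log2, adjusted p = 0.000214). In the mutant the difference was 0.26 (adjusted p = 0.159), and the 2 effects differed by -0.68 ± 0.17, which did not reach the threshold (adjusted p = 0.0693). Ccl12 lay below the filter, with a log2 difference of 0.16 in the wild-type and 0.00 in the mutant genotype.

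Ccl8, which in mice binds Ccr8 and attracts T cells and other leukocytes, had the largest log2 difference of the 34 members in wild-type knockouts. It stood at 8.58, 8.44 and 9.16 there, against 6.67, 6.86 and 7.05 in wild-type controls. Mutant knockouts had 6.86, 7.07 and 7.19, against 7.03, 7.01 and 7.02 in mutant controls. Only the wild-type knockout arrays exceeded the filter, and the other 9 arrays lay at background. Set against the background of 7.63, their mean was at least 2.15-fold higher than in wild-type controls. Because the filter admitted Ccl8 only through these arrays, its tests are given from limma on all 19938 genes with no filter. The log2 difference there was 1.87 in the wild-type genotype (adjusted p = 9.75e-06), and the difference of the effects was -1.85, smaller in the mutant (adjusted p = 0.00208). In the mutant itself the difference was 0.02, between groups that both lay at background. Ccr8 itself lay below the filter.

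**Figure D4:**
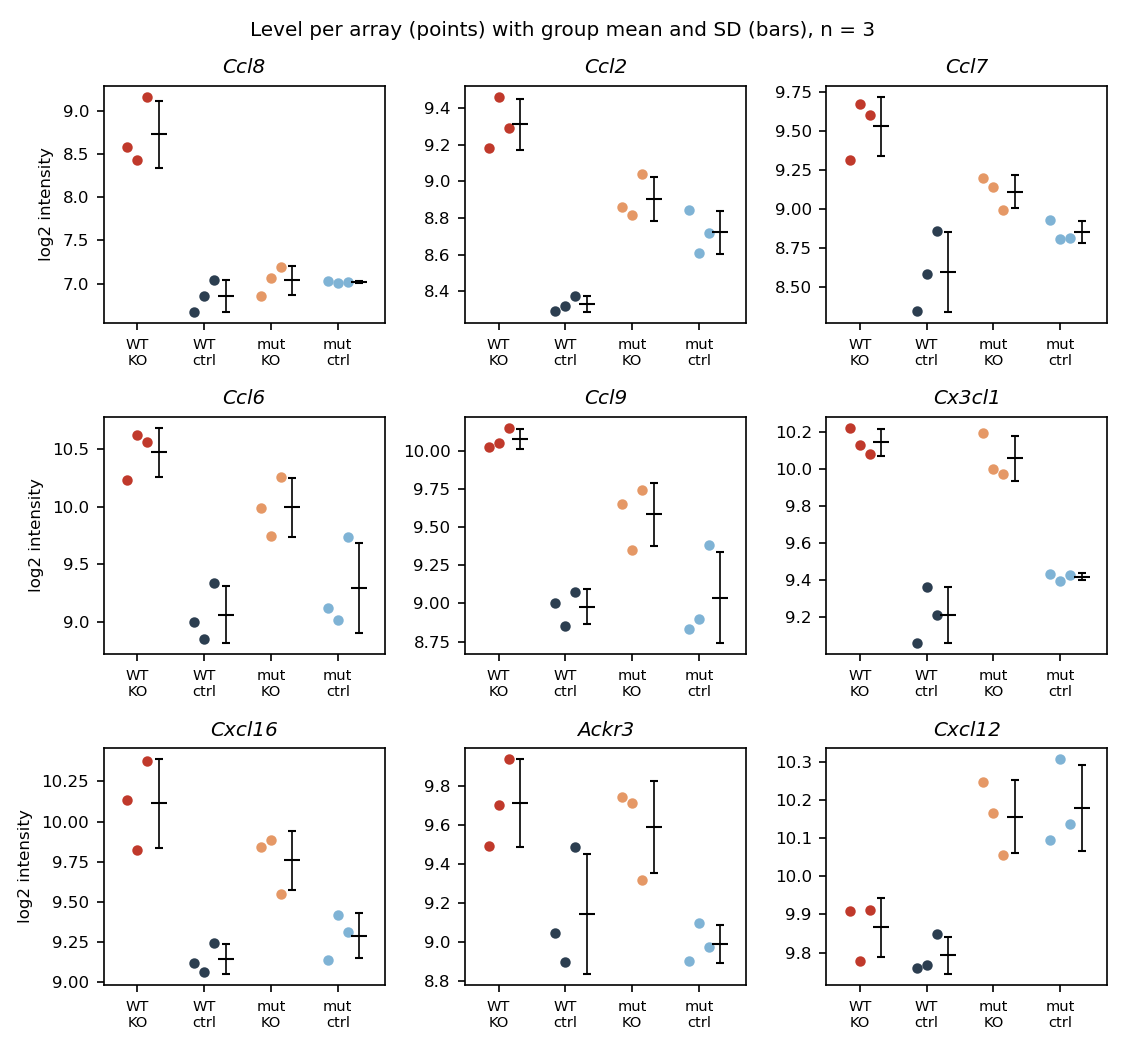
Log2 intensity of 9 members on each array (points) with the mean and SD of each group (bars, n = 3), for knockouts (KO) left of controls (ctrl) in the wild-type (WT) and the mutant (mut) genotype, each panel on its own axis. Ccl8 is high on the 3 wild-type knockout arrays alone, Cx3cl1 is high in both knockout groups, and Cxcl12 is high in both mutant groups.

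Ccl6 and Ccl9 are rodent ligands of Ccr1 that macrophages make in quantity. Ccl6 stood at 10.23, 10.63 and 10.57 in wild-type knockouts, against 9.0, 8.85 and 9.34 in wild-type controls. Mutant knockouts had 9.99, 9.75 and 10.26, against 9.12, 9.02 and 9.74 in mutant controls. Knockouts and controls did not overlap in either genotype, though mutant knockout 2 and mutant control 3 lay close together. The rise was 2.66-fold in the wild-type (1.41 ± 0.19 log2, adjusted p = 0.000302) and 1.63-fold in the mutant genotype (0.70 ± 0.19, adjusted p = 0.0303). In the mutant that call was lost when mutant control 1 or 2 was left out (adjusted p of 0.0974 and 0.12) or mutant knockout 1 or 3 (0.0698 and 0.0898), and when the immediate early score was a covariate (0.164). The effects differed by -0.71 ± 0.27 (adjusted p = 0.213).

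Ccl9 stood at 10.03, 10.06 and 10.15 in wild-type knockouts, against 9.0, 8.85 and 9.08 in wild-type controls. In the mutant it stood at 9.66, 9.35 and 9.75 in knockouts, against 8.83, 8.90 and 9.38 in controls, where mutant control 3 passed mutant knockout 2. It rose 2.15-fold in the wild-type (1.10 ± 0.13 log2, adjusted p = 0.000155) and 1.46-fold in the mutant genotype (0.55 ± 0.13, adjusted p = 0.0195). The mutant call was lost when mutant control 1 or 2 was left out (adjusted p of 0.073 and 0.0792) or mutant knockout 1 or 3 (0.061 and 0.0587), and at 0.138 when the immediate early score was a covariate. Mutant control 3 was the highest mutant control for Ccl6 and for Ccl9. It also had the highest summed intensity of macrophage markers among mutant controls, at 29199 against 21164 and 23014. Its summed T and NK cell marker intensity was the highest of all arrays, at 4146, where the other 11 lay between 2554 and 3324. What part that array's other cells have in these values was not tested.

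Ccl3, Ccl4 and Ccl5 attract monocytes and T cells, Ccl3 and Ccl5 through Ccr1 among others. Ccl3 stood at 8.25, 8.10 and 7.84 in wild-type knockouts, against 7.51, 7.57 and 7.54 in wild-type controls. Mutant knockouts had 8.38, 7.82 and 8.02, against 7.85, 8.05 and 7.89 in mutant controls. The wild-type groups did not overlap and the mutant groups did. Ccl3 rose 1.44-fold in wild-type knockouts (0.53 ± 0.13 log2, adjusted p = 0.0119). That call was lost without wild-type knockout 1 (adjusted p = 0.0557). All wild-type control arrays lay under background for Ccl3, so the size of its rise is uncertain. In the mutant the difference of Ccl3 was 0.14 (adjusted p = 0.461). Ccl4 differed by -0.05 in the wild-type and 0.23 in the mutant genotype, and Ccl5 by 0.23 and 0.27, none past the threshold. No group mean of Ccl4 exceeded background.

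These CC ligands lie in 2 clusters on chromosome 11, in the gene order of RefSeq. The first runs Ccl2, Ccl7, Ccl11, Ccl12, Ccl8, Ccl1 with no other coding gene between them, and after 25 other coding genes the second runs Ccl5, Ccl9, Ccl6, Ccl3, Ccl4. Within each cluster the knockout effect varied between neighbours. In the first, Ccl2, Ccl7 and Ccl8 rose in wild-type knockouts, while Ccl11, between Ccl7 and Ccl12, had a difference of -0.34 (adjusted p = 0.216) and Ccl1 one of -0.01. Ccl9, Ccl6 and Ccl3 rose in the second, with the flanking Ccl5 and Ccl4 not past the threshold. Array probes of neighbouring paralogs can bind each other's RNA where their sequences are alike, which the deposited values cannot separate.

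**Figure D5:**
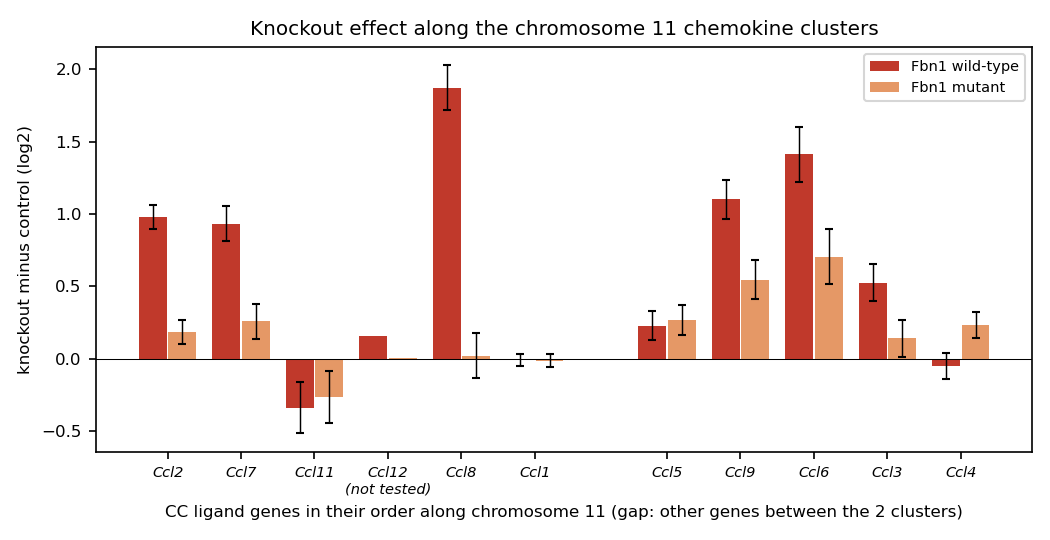
Knockout minus control (log2) for 11 CC ligand genes in their order along chromosome 11, in the wild-type (dark bars) and the mutant genotype (light bars), with standard errors from limma where tested. Ccl8 has the tallest wild-type bar at 1.87 beside a mutant bar of 0.02, and Ccl11 and Ccl1 do not rise.

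Promoters of 2 neighbours in each cluster are shown because their transcripts behaved unlike each other in the first (Ccl8 rose in wild-type knockouts, and Ccl12 stayed below the filter) and alike in the second (Ccl6 and Ccl9). The windows are from RefSeq (GRCm38.p6), run from 250 bases before to 50 bases after the annotated start, and are written 5′ to 3′ on the strand of the gene. Capitals mark matches, on either strand, to TATAAA, the TATA box that places the start of transcription in many inducible genes. The letters CAGACA, bound by SMAD factors of the TGF-beta pathway, were searched in the same way, and so were the letters of the AP-1 site, TGAGTCA.
Ccl8, chr11:82114935-82115234, plus strand: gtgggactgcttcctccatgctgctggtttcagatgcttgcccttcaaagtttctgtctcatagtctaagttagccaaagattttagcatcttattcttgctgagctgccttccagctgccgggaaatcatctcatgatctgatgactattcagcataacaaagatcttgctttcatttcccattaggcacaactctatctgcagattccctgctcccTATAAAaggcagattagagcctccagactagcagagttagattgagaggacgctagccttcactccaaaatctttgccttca
Ccl12, chr11:82101595-82101894, plus strand: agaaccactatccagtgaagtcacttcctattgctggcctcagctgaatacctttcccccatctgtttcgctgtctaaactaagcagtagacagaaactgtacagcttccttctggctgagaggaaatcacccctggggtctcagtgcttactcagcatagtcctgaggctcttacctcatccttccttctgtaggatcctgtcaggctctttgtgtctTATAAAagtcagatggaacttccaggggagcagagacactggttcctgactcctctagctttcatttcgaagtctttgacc
Ccl6, chr11:83593038-83593337, minus strand: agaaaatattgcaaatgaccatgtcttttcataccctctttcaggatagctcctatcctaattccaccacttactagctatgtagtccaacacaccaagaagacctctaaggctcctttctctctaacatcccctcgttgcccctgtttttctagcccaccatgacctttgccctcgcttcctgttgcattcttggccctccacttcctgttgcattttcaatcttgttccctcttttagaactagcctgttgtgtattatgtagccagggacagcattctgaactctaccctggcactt
Ccl9, chr11:83578587-83578886, minus strand: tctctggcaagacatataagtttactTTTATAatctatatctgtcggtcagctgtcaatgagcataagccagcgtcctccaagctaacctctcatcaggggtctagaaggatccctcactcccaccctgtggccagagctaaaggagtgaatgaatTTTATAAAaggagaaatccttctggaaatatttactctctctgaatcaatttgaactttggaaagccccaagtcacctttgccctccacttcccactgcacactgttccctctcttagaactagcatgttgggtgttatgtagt
Each of Ccl8 and Ccl12 held 1 match, a TATA box starting at -32 and -31 from the annotated start. Ccl9 held 3 matches to the TATA letters, of which 2 overlap on opposite strands, and Ccl6 held none. Neither the SMAD nor the AP-1 letters lay in these 4 windows. Among all 32851 such windows 13.6% held the TATA letters, 21% the SMAD letters and 5.2% the AP-1 letters. Of the 14 members that rose in wild-type knockouts 11 had a window, and the TATA letters were found in 5 of these, the SMAD letters in 1 and the AP-1 letters in 1. These counts are of genes with a match in any of their windows, whereas the shares above are of single windows, so the units differ.

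Ccl19, the ligand of Ccr7 that draws dendritic cells and T cells into lymphoid tissue, stood at 11.49, 11.59 and 11.53 in wild-type knockouts, against 11.06, 10.89 and 11.19 in wild-type controls. Mutant knockouts had 10.97, 11.14 and 11.37, against 10.67, 10.76 and 11.20 in mutant controls. The wild-type groups did not overlap and the mutant groups did. It rose 1.41-fold in wild-type knockouts (0.49 ± 0.13 log2, adjusted p = 0.0188), with the call lost when wild-type control 2 was left out (adjusted p = 0.0784), and likewise for wild-type knockouts 2 and 3 (0.0563 and 0.0535). Ccl19 has 5 single-symbol probe sets, 2 of them identical on every array, and near-identical gene copies can share their signal, so which copy the value stands for is uncertain. The 4 probe sets of its neighbour Ccl21, also a Ccr7 ligand, named several symbols and held the same values on all 12 arrays. They ranged from 8.90 to 10.71 within the mutant controls alone and did not pass the threshold in any comparison. The 3 probe sets of Ccl27, a Ccr10 ligand, averaged 10.77 to 11.27 in wild-type knockouts and did not pass the threshold either, with a difference of the knockout effects of 0.54 to 0.55 (adjusted p = 0.131 to 0.143). Ccr7 itself differed by 0.19 in the wild-type genotype (adjusted p = 0.053).

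Among other CC ligands, Ccl11 (eotaxin, which calls eosinophils through Ccr3) stood at 9.23, 9.21 and 9.73 in wild-type knockouts, against 9.47, 9.61 and 10.10 in wild-type controls. In the mutant it stood at 9.25, 9.49 and 9.22 in knockouts, against 9.34, 9.84 and 9.57 in controls. Groups overlapped in both genotypes, and the differences of -0.34 and -0.26 did not reach the threshold. Ccl1, Ccl17, Ccl20, Ccl24 and Ccl25 had differences between -0.08 and 0.14 over both genotypes, none past it. The mean of Ccl17 over all arrays did not exceed background.

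The membrane-bound ligands Cx3cl1 and Cxcl16 rose in knockouts of both genotypes. Cx3cl1 stood at 10.22, 10.13 and 10.08 in wild-type knockouts, against 9.06, 9.36 and 9.21 in wild-type controls. Mutant knockouts had 10.19, 10.00 and 9.97, against 9.43, 9.40 and 9.43 in mutant controls. Knockouts lay above controls without overlap in both genotypes. It rose 1.91-fold in the wild-type (0.93 ± 0.08 log2, adjusted p = 1.16e-05) and 1.55-fold in the mutant genotype (0.64 ± 0.08, adjusted p = 0.000358), and each call held under all 25 alternatives. The effects differed by -0.29 with a 95% interval of -0.53 to -0.06 (adjusted p = 0.207).

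Its receptor Cx3cr1 stood at 9.41, 9.0 and 9.17 in wild-type knockouts, against 8.69, 8.68 and 8.79 in wild-type controls. Mutant knockouts had 9.29, 9.12 and 9.08, against 8.96, 9.01 and 8.90 in mutant controls. The groups did not overlap in either genotype. Cx3cr1 rose 1.39-fold in the wild-type (0.47 ± 0.09 log2, adjusted p = 0.00317) under all 25 alternatives, and the difference of 0.21 in the mutant did not reach the threshold (adjusted p = 0.142).

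Cxcl16, the ligand of Cxcr6, is also a scavenger receptor for oxidised lipoprotein. It stood at 10.14, 9.82 and 10.38 in wild-type knockouts, against 9.12, 9.06 and 9.24 in wild-type controls. In the mutant it stood at 9.84, 9.88 and 9.55 in knockouts, against 9.14, 9.41 and 9.31 in controls. Again there was no overlap in either genotype. The rise was 1.96-fold in the wild-type (0.97 ± 0.13 log2, adjusted p = 0.000263) and 1.39-fold in the mutant (0.47 ± 0.13, adjusted p = 0.0308). In the mutant the call was lost when mutant control 1, 2 or 3 was left out (adjusted p of 0.104, 0.0506 and 0.0531) or mutant knockout 1 or 2 (0.09 and 0.104). Cxcr6 lay below the filter, with a log2 difference of 0.00 in the wild-type and 0.04 in the mutant genotype.

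Cxcl9, Cxcl10 and Cxcl11 are ligands of Cxcr3 that interferons induce. Cxcl10 stood at 7.93, 7.66 and 7.39 in wild-type knockouts, against 7.27, 7.31 and 7.16 in wild-type controls. Mutant knockouts had 7.61, 7.5 and 7.53, against 7.15, 7.28 and 7.02 in mutant controls. Knockouts lay above controls in both genotypes, and only wild-type knockouts 1 and 2 exceeded the background of 7.63. Cxcl10 passed the filter only through the knockout groups, so its tests are given first from limma with no filter. There it rose 1.33-fold in the wild-type (0.42 log2, adjusted p = 0.0217) and 1.31-fold in the mutant genotype (0.39, adjusted p = 0.0381). Both mutant groups lay at background, so the size of that rise is uncertain. With the filter the differences were 0.42 ± 0.11 (adjusted p = 0.0189) and 0.39 ± 0.11 (adjusted p = 0.0342). The wild-type call was lost without wild-type control 3 (adjusted p = 0.0635) or wild-type knockout 1 (0.0697), or when the fit took up the immediate early score (0.0624). The mutant call was lost when mutant control 1 or 3 was left out (adjusted p of 0.0811 and 0.0899) or mutant knockout 1, 2 or 3 (0.0949, 0.0676 and 0.0629). It was also lost after quantile normalization (0.0685), after centring arrays on their medians (0.0542) and when the fit took up the immediate early score (0.191). Cxcl9 differed by 0.35 and 0.30 in the 2 genotypes without reaching the threshold, Cxcr3 by 0.07 and 0.13, and Cxcl11 lay below the filter.

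Cxcl14, whose receptor is not settled, stood at 7.63, 7.71 and 7.79 in wild-type knockouts, against 7.48, 7.54 and 7.56 in wild-type controls. In the mutant it stood at 7.58, 7.60 and 7.56 in knockouts, against 7.71, 7.57 and 7.51 in controls. The wild-type groups did not overlap, at levels close to background. The rise of 0.19 ± 0.06 log2 (adjusted p = 0.0462) was lost in 16 of 23 alternatives, among them leaving out wild-type control 1, 2 or 3 (adjusted p of 0.132, 0.0927 and 0.0637), wild-type knockout 2 or 3 (0.0881 and 0.174), mutant control 2 (0.0613), mutant knockout 1, 2 or 3 (0.0625, 0.0582 and 0.0519) or both arrays of high Ucp1 (0.058). Of the other CXC ligands Cxcl1, which calls neutrophils through Cxcr2, had differences of -0.05 and 0.17 in the 2 genotypes, and Cxcl17 of -0.07 and 0.12. None reached the threshold.

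Cxcl12, which retains stem cells and lymphocytes through Cxcr4, differed with the Fbn1 genotype. It stood at 10.25, 10.17 and 10.06 in mutant knockouts and 10.09, 10.31 and 10.14 in mutant controls, against 9.91, 9.78 and 9.91 in wild-type knockouts and 9.76, 9.77 and 9.85 in wild-type controls. Every mutant array lay above every wild-type array. Among controls it rose 1.31-fold in the mutant (0.39 ± 0.07 log2, adjusted p = 0.00689), under all 25 alternatives, and among knockouts 1.22-fold (0.29 ± 0.07, adjusted p = 0.0272). The call among knockouts was lost without wild-type knockout 1, 2 or 3 (adjusted p of 0.0606, 0.0933 and 0.0568), mutant knockout 1 (0.119) or mutant knockout 2 (0.0748), and without both arrays of high Ucp1 (0.136). With each array centred on its median the adjusted p was 0.0837. Between knockouts and controls its log2 difference was 0.07 with a 95% interval of -0.08 to 0.22 in the wild-type and -0.02 with one of -0.17 to 0.13 in the mutant genotype. Cxcr4 differed by 0.37 (adjusted p = 0.068) and 0.23 in the 2 genotypes.

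Ackr3, an atypical receptor that takes up Cxcl12 and Cxcl11, stood at 9.49, 9.71 and 9.94 in wild-type knockouts, against 9.04, 8.90 and 9.49 in wild-type controls. Mutant knockouts had 9.74, 9.71 and 9.32, against 8.90, 9.10 and 8.98 in mutant controls. Groups did not overlap, although wild-type control 3 all but reached wild-type knockout 1. The rises were similar in size, 1.48-fold in the wild-type (0.57 ± 0.15 log2, adjusted p = 0.0221) and 1.52-fold in the mutant genotype (0.60 ± 0.15, adjusted p = 0.0251). Their difference was 0.03 with a 95% interval of -0.44 to 0.50. The wild-type call was lost when wild-type control 1 or 2 was left out (adjusted p of 0.0704 and 0.0927) or wild-type knockout 2 or 3 (0.0512 and 0.0959). The mutant call was lost without mutant control 1, 2 or 3 (adjusted p of 0.0777, 0.0518 and 0.0501) or mutant knockout 1 or 2 (0.0815 and 0.0843).

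Ackr4, which removes Ccl19, Ccl21 and Ccl25, stood at 8.63, 8.79 and 8.85 in wild-type knockouts, against 8.40, 8.54 and 8.52 in wild-type controls. In the mutant it stood at 8.73, 8.84 and 8.61 in knockouts, against 8.38, 8.55 and 8.63 in controls, with overlap. The rise in wild-type knockouts was 1.2-fold (0.27 ± 0.08 log2, adjusted p = 0.039) and was lost in 10 of 24 alternatives. Among these were leaving out wild-type control 1, 2 or 3 (adjusted p of 0.127, 0.0612 and 0.0623), wild-type knockout 2 or 3 (0.0953 and 0.145), mutant control 2 (0.0524) or mutant knockout 1 (0.0527). Ackr1 and Ackr2, which bind many inflammatory chemokines, differed by -0.02 and 0.01 in the wild-type and by 0.06 and 0.01 in the mutant genotype. No group mean of Ackr1 exceeded background.

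Ccrl2, which binds the attractant chemerin and presents it to cells that carry Cmklr1, was the member that fell. It stood at 9.61, 9.71 and 9.79 in wild-type knockouts, against 10.09, 10.24 and 10.04 in wild-type controls. Mutant knockouts had 9.86, 9.64 and 9.85, against 9.69, 9.92 and 9.86 in mutant controls. The wild-type controls stood above all other arrays. The log2 difference in the wild-type genotype was -0.42 ± 0.08 (adjusted p = 0.00343) under all 25 alternatives, against -0.04 in the mutant (adjusted p = 0.752), and the effects differed by 0.38 ± 0.12 without reaching the threshold (adjusted p = 0.132).

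The Fbn1 comparisons use the same arrays as those above, so their values are not independent of them. Among controls 3 of the 34 members passed the threshold in the mutant against the wild-type, 8.82% against 6.49% of all genes tested (3.17% rose and 3.33% fell). Groups did not overlap for 9 members, against 28.1% of all genes tested. Cxcl12 and Ccl2 rose, Ccl2 by 1.31-fold (0.39 ± 0.08 log2, adjusted p = 0.0165, lost without wild-type control 2 at 0.0516 and without mutant control 1 at 0.0597). Ccrl2 fell by 0.30 ± 0.08 log2 (adjusted p = 0.0463), and that call was lost in 15 of 25 alternatives. Leaving out any 1 control array did so, with adjusted p of 0.0773, 0.146 and 0.0601 for wild-type controls 1, 2 and 3 and 0.137, 0.072 and 0.0717 for mutant controls 1, 2 and 3. So did leaving out wild-type knockout 1, 2 or 3 (0.0546, 0.0603 and 0.0522) or mutant knockout 1 (0.0559), which changes the shared spread only, or both arrays of high Ucp1 (0.0851).

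Among knockouts 4 members passed it, 11.8% against 5.96% of all genes tested (2.8% rose and 3.16% fell). Groups did not overlap for 11 members, against 26.3% of all genes tested. Cxcl12 rose in the mutant, as given above, and Ccl8, Ccl2 and Ccl9 fell. Mutant knockouts lay at background for Ccl8, which was at least 2.15-fold lower there than in wild-type knockouts (adjusted p = 0.000103 in limma with no filter). Without Ccl8 and Cxcl10 the count was 3 of 32, or 9.38%. Ccl2 differed by -0.41 ± 0.08 (adjusted p = 0.0124), lost without mutant knockout 1 (0.058), mutant knockout 2 (0.05) or both arrays of high Ucp1 (0.0731), and Ccl7 by -0.42 ± 0.12 without reaching the threshold (adjusted p = 0.0584). For Ccl9 the difference was -0.49 ± 0.13 (adjusted p = 0.0464). That call was lost in 10 of 25 alternatives, among them leaving out wild-type knockouts 1, 2 or 3 (adjusted p of 0.105, 0.0959 and 0.142), mutant knockouts 1 or 2 (0.0987 and 0.154), wild-type controls 1 or 2 (0.062 and 0.0559) or mutant control 2 (0.0546). Over both Fbn1 comparisons the members' median log2 difference was -0.03 among controls and -0.07 among knockouts, beside -0.02 and 0.01 for all genes tested.

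Members below the filter were fitted again with all 19938 genes included, at levels where an array value has little meaning. Of these 23 members Ccr2, Ccr1 and Ccr3 passed the threshold in wild-type knockouts, all higher than in controls. In mutant knockouts Ccr1, Cxcl11, Cxcl2 and Xcl1 did, also higher. The share of all genes past the threshold in that fit is not given here, so nothing is concluded from these calls as a set. For Cxcl2, a neutrophil attractant, the log2 difference was 0.35 ± 0.08 in the mutant (adjusted p = 0.0227) and 0.09 in the wild-type genotype. Cxcl11 differed by 0.22 ± 0.05 (adjusted p = 0.0182) and 0.10, and Xcl1 by 0.16 ± 0.05 (adjusted p = 0.0462) and 0.11, again in the mutant and the wild-type. The effects of these 3 genes in the 2 genotypes did not differ past the threshold (adjusted p of 0.336, 0.455 and 0.751). Ccr3 differed by 0.20 ± 0.06 in the wild-type (adjusted p = 0.0491) and 0.17 in the mutant (adjusted p = 0.1). Ccr2, the receptor of Ccl2 and Ccl7, stood at 8.0, 7.77 and 7.38 in wild-type knockouts, against 6.43, 6.65 and 6.32 in wild-type controls. Mutant knockouts had 6.82, 6.81 and 6.98, against 6.58, 6.64 and 6.52 in mutant controls. The wild-type knockouts stood above all other arrays, and wild-type knockouts 1 and 2 alone exceeded the background of 7.63. In that fit Ccr2 rose by 1.25 ± 0.13 log2 in wild-type knockouts (adjusted p = 4.09e-05), differed by 0.29 in the mutant (adjusted p = 0.152), and the effects differed by -0.96 ± 0.18 (adjusted p = 0.0234). Ccr2 was singled out after its values were seen, and its other 3 groups lay far under background.

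Ccr1, the receptor of Ccl3, Ccl6 and Ccl9, stood at 6.30, 6.79 and 6.85 in wild-type knockouts, against 5.95, 6.14 and 6.17 in wild-type controls, and at 6.39, 6.18 and 6.32 in mutant knockouts, against 5.96, 5.78 and 5.91 in mutant controls. All of these lie under the background of 7.63. The same fit gave 0.56 ± 0.12 log2 in the wild-type (adjusted p = 0.0074) and 0.42 ± 0.12 in the mutant genotype (adjusted p = 0.0449). Cxcl13, which draws B cells, was at 8.28, 7.32 and 7.63 in wild-type knockouts, against 7.58, 6.71 and 6.88 in wild-type controls, with overlap. Its difference of 0.69 did not reach the threshold (adjusted p = 0.0619).

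Macrophage markers moved with these genes. Of 24 tested, 22 rose in wild-type knockouts with a median log2 difference of 0.98, and 13 rose in mutant knockouts with a median of 0.40, beside -0.01 and 0.03 for all genes tested. Of all genes tested 9.17% rose in wild-type and 7.66% in mutant knockouts. For the difference of the knockout effects 6 of 24 fell, with a median of -0.57, where 1.08% of all genes tested fell. Among knockouts 9 of 24 fell in the mutant against the wild-type, where 3.16% of all genes tested fell. Adgre1, the F4/80 antigen, rose by 1.22 ± 0.08 log2 in wild-type knockouts (adjusted p = 2.91e-06) and had an effect smaller by 0.86 ± 0.12 in the mutant (a difference of -0.86, adjusted p = 0.00415). The summed intensity of the markers lay between 41430 and 46680 in wild-type knockouts and 21163 and 25630 in wild-type controls. It lay between 33801 and 34702 in mutant knockouts and 21164 and 29199 in mutant controls. Aif1 alone of the 25 markers was below the filter. Their part in the chemokine results was not tested.

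Markers of other leukocytes were mostly dim or did not pass the threshold. The counts here and below stand beside the 9.17% of all genes tested that rose and 9.66% that fell in wild-type knockouts, and the 7.66% and 5.77% that did so in mutant knockouts. In wild-type knockouts 1 of 7 monocyte markers, 0 of 4 neutrophil markers (with 1 that fell), 1 of 6 T and NK cell markers, 0 of 4 B cell markers, 3 of 7 dendritic cell markers and 0 of 5 mast cell and eosinophil markers rose. In mutant knockouts these counts were 2 (with 1 that fell), 1, 0, 1, 0 and 0 in the same order. Defining genes such as Cd3d, Cd3g, S100a8, S100a9, Ly6g, Cd79a and Ms4a1 lay below the filter. Of 15 endothelial markers 7 (46.7%) rose and 1 fell in each genotype, among them Plvap, which rose by 0.52 ± 0.09 log2 in the wild-type (adjusted p = 0.00124) and 0.62 ± 0.09 in the mutant (adjusted p = 0.000843). Smooth muscle markers, 12 tested, had 1 that rose and 2 that fell in the wild-type, and 2 that rose and 1 that fell in the mutant. Fibroblast markers, 11 tested, had 5 (45.5%) that rose in the wild-type, and 2 (18.2%) that rose and 2 that fell in the mutant. Cx3cl1 and Cxcl12 can be made by endothelial cells and fibroblasts, and the part of these cells was not tested.

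Genes that act with chemokines were described from lists. Attractants and their receptors under other symbols had 6 of 12 that rose and 1 that fell in wild-type knockouts, and 4 of 12 that rose in mutant knockouts. The 4 were C3ar1, C5ar1, Rarres2 and Lyve1, of which Lyve1 is a hyaluronan receptor of lymphatic vessels and macrophages and no attractant receptor. The complement receptors C3ar1 and C5ar1 rose by 1.16 ± 0.12 and 0.80 ± 0.13 log2 in the wild-type (adjusted p = 6.59e-05 and 0.000892) and by 0.43 ± 0.12 and 0.42 ± 0.13 in the mutant (0.04 and 0.0432). Cmklr1, the chemerin receptor that Ccrl2 serves, rose by 0.37 ± 0.07 in the wild-type (adjusted p = 0.00194). Its ligand chemerin, Rarres2, rose by 0.21 ± 0.06 in the mutant (adjusted p = 0.0344).

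Of 35 genes of chemokine signalling inside the cell, 10 rose in wild-type and 2 in mutant knockouts, which is 28.6% against 9.17% of all genes tested and 5.71% against 7.66%. Dock2, a Rac activator of migrating leukocytes, rose by 0.76 ± 0.08 log2 in the wild-type (adjusted p = 5.61e-05), and the effects differed by -0.69 ± 0.11 (adjusted p = 0.00974). Vav1, likewise a leukocyte exchange factor, rose by 0.64 ± 0.08 (adjusted p = 0.000136) with a difference of the effects of -0.59 ± 0.11 (adjusted p = 0.0188). Tiam1, a Rac activator found in many cell types, rose by 0.67 ± 0.08 in the wild-type (adjusted p = 0.000192), and so did the kinase subunit Pik3cg by 0.64 ± 0.08 (adjusted p = 0.000252). The 2 that rose in mutant knockouts were Rgs16, which limits G protein signals, by 0.28 ± 0.06 (adjusted p = 0.0119), and Pik3r5, the partner of Pik3cg, by 0.22 ± 0.05 (adjusted p = 0.017).

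Adhesion molecules of leukocyte entry had 6 of 17 (35.3%) that rose and 1 that fell in each genotype, against 9.17% of all genes tested that rose in the wild-type and 7.66% in the mutant. Icam1, to which leukocyte integrins bind, rose by 0.67 ± 0.09 log2 in wild-type knockouts (adjusted p = 0.000368) and by 0.41 ± 0.09 in mutant knockouts (adjusted p = 0.0154). Among genes that induce chemokines, 3 of 17 (17.6%) rose in each genotype, beside the same shares of all genes. Thbs1, the thrombospondin that attracts monocytes and activates TGF-beta, rose by 1.86 ± 0.24 in the wild-type (adjusted p = 0.000215) and 1.5 ± 0.24 in the mutant (adjusted p = 0.00215), and Irf5 by 0.46 ± 0.08 (adjusted p = 0.00152) and 0.32 ± 0.08 (adjusted p = 0.0197). The cytokines Tnf, Il1a, Il6 and Ifnb1, which induce many chemokines, lay below the filter.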

How the data were processed

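The deposited values are linear intensity after RMA, made by the authors with Partek 6.4 per the submitters' processing notes, for 35556 probe sets on 12 one-colour Affymetrix whole-transcript arrays. Log2 was taken here. Raw scans and detection calls were not used, and the number of arrays limits precision. Of 23410 annotated probe sets 21789 named 1 symbol, and the one of highest mean stood for each of 19938 genes. Members, gene lists, tests and alternatives were chosen with earlier results of these data known.

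Limma 3.58.1 (R 4.3.3, lmFit and eBayes, 1 coefficient per group, 8 residual degrees of freedom) was fitted to 14944 genes whose mean reached the 25th percentile of single-symbol probe sets (intensity 159). Tests were two-sided, with Benjamini-Hochberg adjustment over all of them and a threshold of 0.05. The script was tested on simulated data. For Tgfbr2 an exact permutation test was run as well. Values per array are given for members past the threshold in any of 5 comparisons and for the 8 of highest mean, and up to 4 genes per list may be named by smallest p. Ccr1, Ccr2 and Cxcl13 were chosen after their values were seen. Alternatives changed the filter, scaling, probe sets, variance model, covariates and arrays, and the fit to every annotated probe set and the counts without Ccl8 and Cxcl10 were added after seeing the data. Of the 57 members 43 matched a RefSeq promoter by gene ID.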

Additional observations from a re-analysis of the deposited data

Results flagged for a closer look

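The knockout effect differed between the Fbn1 genotypes, by the test of the difference itself in limma, for 2 of the 34 tested members. For Ccl8 it was smaller in the mutant (a log2 difference of -1.85, adjusted p = 0.00216), with wild-type knockouts at 8.44 to 9.16 and the other 9 arrays at 6.67 to 7.19, at background. Ccl8 passed the filter on dim probe sets only through the wild-type knockouts, and with no filter the adjusted p was 0.00208. For Ccl2 the difference was -0.799 (adjusted p = 0.00573), and Ccl2 was also higher in mutant than in wild-type controls, by 0.39 log2. Macrophage markers had smaller knockout effects in the mutant as well, with 6 of 24 past the threshold for that difference, where 1.08% of all genes tested were past it in that direction. Whether the chemokine differences go with the number of macrophages was not tested.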

How the results depend on the processing

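Of 30 calls of members over the 5 comparisons, 14 held under every alternative that tested them, 16 were lost under at least 1, and 0 reversed. For knockouts in the wild-type genotype the count of 15 lay between 11 and 16 when single arrays were left out, and between 10 and 17 under the other settings. In the mutant genotype the count of 6 became 10 with no filter and 3 when the immediate early score was a covariate, and lay between 1 and 7 without single arrays. For the difference of the knockout effects the 2 calls became 1 with the filter at the median and 1 with the filter at the smell receptor background, both of which leave Ccl8 untested, and also 1 with Ccl8 and Cxcl10 left out, and were 2 to 3 without single arrays. Among controls the 3 Fbn1 calls lay between 1 and 3 without single arrays. Among knockouts the 4 became 2 without both arrays of high Ucp1 and lay between 1 and 5 without single arrays. Over all genes tested, counts moved by more than 1.5 times. With array weights, 2008 became 3687 for knockouts in the mutant, 221 became 469 for the difference, and 970 and 890 became 1568 and 1687 for Fbn1 among controls and knockouts. For knockouts in the mutant it was 829 with the immediate early score, 1082 without both arrays of high Ucp1 and 1261 with the arrays compared alone, which gave 480 for Fbn1 among controls. Fbn1 among knockouts gave 409 without both arrays of high Ucp1. Without single arrays the lowest counts were 1836 of 2814, 896 of 2008, 107 of 221, 349 of 970 and 382 of 890 in the order of the comparisons. The cause was not tested.

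For a check of pairing, each gene's group mean was subtracted and the remainders of the arrays were correlated. Remainders of same-numbered knockout and control arrays correlated by 0.063, 0.063 and 0.240 in the wild-type genotype. In the mutant genotype they correlated by 0.013, 0.059 and 0.157. By this measure 5 of 12 arrays correlated best with their own number, so the numbers were not taken as pairs. With the replicate number as a block, 14, 6, 2, 2 and 5 members were called in the 5 comparisons, against 15, 6, 2, 3 and 4 without it.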
